A study of Homo sapiens with 18 samples.

Results

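Gemcitabine is a deoxycytidine analog used against pancreatic ductal adenocarcinoma. Its uptake, activation and inactivation and its effect on deoxynucleotides involve a small set of proteins, and the transcripts of 10 of them were followed here. They were the nucleoside transporters SLC29A1, SLC29A2 and SLC28A1, and the kinases DCK and CMPK1. The others were the deaminases CDA and DCTD and the ribonucleotide reductase subunits RRM1, RRM2 and RRM2B. These 10 genes were chosen by name for their role in handling the drug, and all were found among the 40266 gene symbols measured. Expression was measured by mRNA sequencing in 18 libraries, 3 for each of 6 groups of untreated human cells: the mesenchymal-like line Panc1, from a primary tumor, and the epithelial line Panc89, from a lymph node metastasis, each as parental, Holoclone and Paraclone cells. Holoclone cells form tight, round colonies and were taken as cancer stem cells, and Paraclone cells form scattered colonies and were taken as their counterpart without stem cell properties. Each Holoclone or Paraclone group is 1 clone grown from a single cell, and its 3 replicates are RNA of 3 passages, so p-values measure the spread between passages and cannot tell the colony type from the clone. Each phenotype and tumor origin is likewise 1 line, so p-values between Panc89 and Panc1 cannot tell either from the line. No library was exposed to the drug, and the drug response of the cells was not analysed here.

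Values are TPM, a measure of transcript abundance relative to all transcripts of a library and corrected for transcript length, and every fold change is a difference of log2(TPM + 1), which understates changes of genes near or under 1 TPM. Genes reaching 1 TPM in 3 or more libraries were tested. This filter left 16093 genes and 9 of the 10 genes followed here, all but SLC28A1. Differences were called at an adjusted p under 0.05 (limma, Benjamini-Hochberg over the 16093 genes, all 18 libraries in the fit). Read totals are not part of the table, so the depth behind a value is unknown. The lines carried the markers of their labels: VIM was at 2021 to 5044 TPM in Panc1 and at most 0.456 TPM in Panc89, CDH1 was at 0.671 to 3.51 TPM in Panc1 and at 73.3 to 107 TPM in Panc89, and the keratins KRT8, KRT18 and KRT19 were above 183 TPM in every library. Of 12 markers of immune, endothelial, stromal, islet and acinar cells none reached 1 TPM in any Panc1 library, while the endothelial marker PECAM1 was at 53.2 to 64.7 TPM in parental Panc89 cells, 0.565 to 1.25 TPM in Panc89 Holoclone and 1.92 to 6.90 TPM in Panc89 Paraclone cells. CDH5, another endothelial gene, was at 1.99 to 5.07 TPM in parental Panc89 cells, and VWF stayed at or under 0.355 TPM in every library. The immune marker CD79A, the stromal marker LUM and the acinar marker PRSS1 reached at most 1.16, 1.15 and 1.36 TPM in Panc89. The part of all these genes in the differences between groups was not tested. In such bulk samples, fewer cells of a kind and less RNA per cell cannot be told apart.

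Gemcitabine is hydrophilic and enters cells through equilibrative (SLC29) and concentrative (SLC28) nucleoside transporters. DCK adds the first phosphate in the rate-limiting step, CMPK1 the second, and the triphosphate is built into DNA. CDA deaminates the drug to an inactive product, DCTD deaminates its monophosphate, and ribonucleotide reductase, which makes the deoxynucleotides that compete with the drug, is itself inhibited by the diphosphate.

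Among these genes, RRM2 had the highest median level over the 18 libraries, 124 TPM, followed by SLC29A1 at 95.2 TPM, DCTD at 80.9 TPM, CMPK1 at 72.2 TPM and RRM1 at 68.4 TPM. SLC29A2 had a median of 47.4 TPM, DCK of 20.4 TPM, RRM2B of 18.8 TPM and CDA of 5.72 TPM. SLC28A1, the concentrative transporter CNT1, was listed at 0 in 8 of 18 libraries and at no more than 0.0361 TPM in the others. The largest fold changes of these genes were those of CDA between the lines, as the plot of every library by gene shows.

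**Figure D1:**
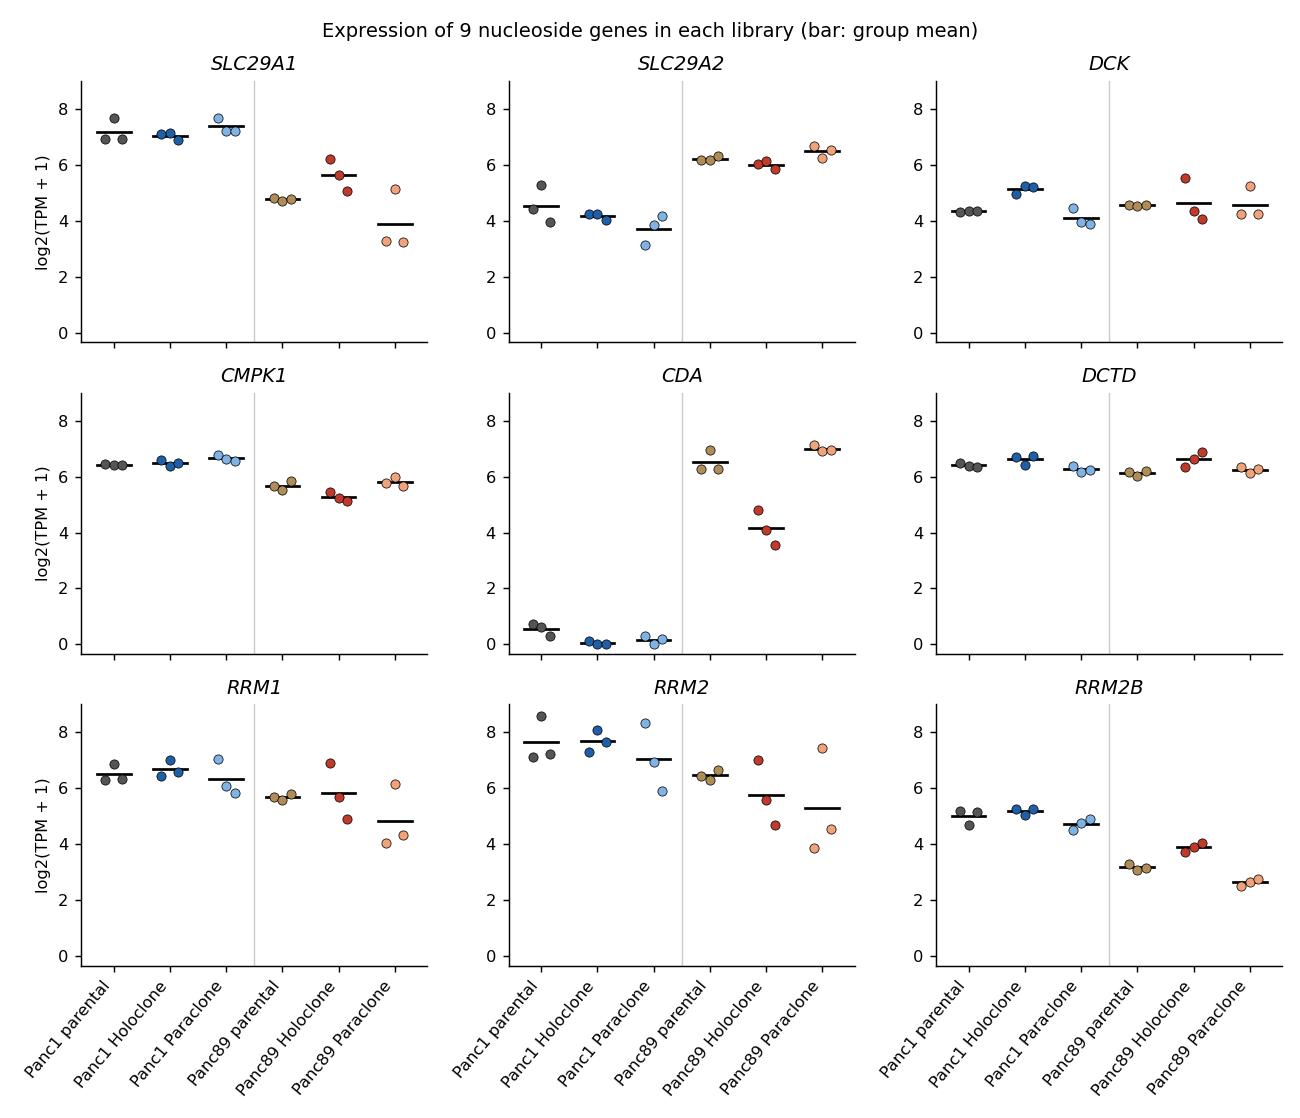
Each panel plots log2(TPM + 1) of 1 gene on the same axis from 0 to 9, with a point for each of the 3 libraries of a group and a bar at the group mean; Panc1 groups stand left of the grey line and Panc89 groups right of it. CDA lies at or under 0.651 TPM in all 9 Panc1 libraries and at or above 10.8 TPM in all 9 Panc89 libraries, while SLC29A1 and SLC29A2 are separated between the lines in opposite directions.

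SLC29A1 (ENT1, chr6:44219553-44234142, plus strand, GRCh38 with GENCODE 44) encodes the main equilibrative route of nucleosides across the plasma membrane. In Panc1 it was at 120.9, 203 and 120.4 TPM in parental, 136, 139 and 118 TPM in Holoclone and 203, 149 and 148 TPM in Paraclone cells. In Panc89 it was at 27.5, 25.2 and 26.4 TPM in parental, 72.4, 48.9 and 32.7 TPM in Holoclone and 8.75, 33.8 and 8.39 TPM in Paraclone cells. Every Panc1 library was above every Panc89 library. The fold change of Panc89 against Panc1 on the log2 scale was -2.40 (SE 0.397, adjusted p = 6.48e-05, limma) for parental, -1.40 (SE 0.397, adjusted p = 0.00562) for Holoclone and -3.50 (SE 0.397, adjusted p = 1.41e-06) for Paraclone cells. Panc1 Holoclone cells lay below Panc1 Paraclone cells in all libraries, and parental Panc1 cells overlapped both. Panc89 Holoclone cells lay above parental Panc89 cells in all libraries and parental and Paraclone Panc89 cells overlapped through 1 Paraclone library.

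SLC29A2 (ENT2, chr11:66362521-66372214, minus strand), a second equilibrative transporter, had the opposite order. It was at 20.4, 37.6 and 14.4 TPM in parental, 18.2, 17.8 and 15.3 TPM in Holoclone and 7.84, 13.3 and 17.1 TPM in Paraclone cells of Panc1. Panc89 had 71.8, 71.2 and 78.2 TPM in parental, 64.3, 69.3 and 57.2 TPM in Holoclone and 101, 74.1 and 91.8 TPM in Paraclone cells. The highest Panc1 library was below the lowest Panc89 library. The log2 fold change of Panc89 against Panc1 was 1.68 (SE 0.277, adjusted p = 6.49e-05, limma) for parental, 1.84 for Holoclone (adjusted p = 2.6e-05) and 2.76 for Paraclone cells (adjusted p = 3.44e-07).

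Of both transporters, SLC29A1 was therefore the more abundant in Panc1 and SLC29A2 in most Panc89 libraries. The difference of SLC29A1 minus SLC29A2 in log2(TPM + 1) ranged from 2.40 to 4.53 over the Panc1 libraries. In Panc89 it was -1.45 ± 0.0887 (SD, n = 3) for parental, -0.37 ± 0.492 for Holoclone and -2.60 ± 1.29 for Paraclone cells. Only 1 Panc89 library, Holoclone replicate 1, had a value above 0, at 0.169. Between the lines the difference was -4.53, with p = 0.00025 in an exact two-sided permutation test over the 8000 arrangements within the 3 kinds of culture, the smallest p the design allows (adjusted p = 0.000375 over 3 gene pairs).

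DCK (chr4:70992538-71030914, plus strand), the deoxycytidine kinase that starts the activation of gemcitabine, was not called between the lines in any of the 3 kinds of culture. It was at 18.8, 19.3 and 19.6 TPM in parental Panc1 cells and at 22.8, 21.8 and 22.8 TPM in parental Panc89 cells. The log2 fold change between these groups was 0.21 (SE 0.313, adjusted p = 0.563, limma); their libraries did not overlap, and with the 2 parental groups fitted alone the same fold change had an adjusted p of 0.0473. Panc1 Holoclone cells had 30.5, 36.6 and 35.9 TPM, Panc89 Holoclone cells 45.3, 19.4 and 15.7 TPM. The Holoclone fold change of -0.49 (adjusted p = 0.184) became -0.93 (adjusted p = 0.0043) without Panc89 Holoclone replicate 1, the library at 45.3 TPM. Paraclone cells had 21.2, 14.5 and 13.7 TPM in Panc1 and 18.1, 36.6 and 17.8 TPM in Panc89 (log2 fold change 0.47, adjusted p = 0.204).

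CMPK1 (chr1:47333790-47394866, plus strand), the cytidine and uridine monophosphate kinase, was lower in Panc89 in all 3 kinds of culture. Over the 9 Panc1 libraries it ranged from 81.5 to 109 TPM with a median of 89.0 TPM, and over the 9 Panc89 libraries from 34.2 to 63.0 TPM with a median of 49.5 TPM. The ranges did not overlap. The log2 fold change was -0.75 (SE 0.117, adjusted p = 3.89e-05, limma) for parental, -1.21 (adjusted p = 2.07e-07) for Holoclone and -0.85 (adjusted p = 1.22e-05) for Paraclone cells.

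CDA (chr1:20589086-20618903, plus strand), the cytidine deaminase that inactivates gemcitabine, was at or near 0 in Panc1 and abundant in Panc89. In Panc1 it was at 0.651, 0.522 and 0.238 TPM in parental cells, at 0.1 TPM in Holoclone replicate 1 and listed at 0 in the other 2, and at 0.239 TPM, listed at 0, and 0.152 TPM in Paraclone cells. In Panc89 it was at 77.0, 124 and 77.2 TPM in parental, 27, 16.2 and 10.8 TPM in Holoclone and 138, 119.7 and 123 TPM in Paraclone cells. All 3 Panc89 Holoclone libraries were below all other Panc89 libraries, and parental and Paraclone Panc89 cells overlapped. On the log2(TPM + 1) scale Panc89 was higher by 5.97 (SE 0.251, adjusted p = 1.06e-11, limma) in parental, 4.11 (adjusted p = 8.37e-10) in Holoclone and 6.83 (adjusted p = 1.94e-12) in Paraclone cells.

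DCTD (chr4:182890060-182917936, minus strand), the deoxycytidylate deaminase, was not called between the lines. It ranged from 71.6 to 105 TPM in Panc1 and from 64.4 to 118 TPM in Panc89, and neighbouring groups overlapped throughout the order of the 6 group means. Its log2 fold changes between the lines were -0.27 (SE 0.126, adjusted p = 0.0746, limma) for parental, 0.0076 (adjusted p = 0.965) for Holoclone and -0.016 (adjusted p = 0.927) for Paraclone cells.

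The balance of the activating kinase and the inactivating deaminase, DCK minus CDA in log2(TPM + 1), was at least 3.58 in every Panc1 library. It was 3.79 ± 0.241 (SD, n = 3) in parental, 5.09 ± 0.219 in Holoclone and 3.93 ± 0.246 in Paraclone Panc1 cells. With CDA at or under 0.651 TPM in Panc1, these values are set mainly by DCK and the added 1. In Panc1 Holoclone replicates 2 and 3, where CDA was listed at 0, they equal the DCK value. In Panc89 it was -1.96 ± 0.424 in parental, 0.49 ± 0.239 in Holoclone and -2.42 ± 0.646 in Paraclone cells. Thus CDA exceeded DCK in the parental and Paraclone libraries of Panc89 and DCK exceeded CDA in its 3 Holoclone libraries. The lines differed by -5.57 (p = 0.00025, exact two-sided permutation test, the smallest p the design allows, adjusted p = 0.000375). As DCK was not called between the lines and CDA separated all their libraries, this result mostly repeats that of CDA.

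**Figure D2:**
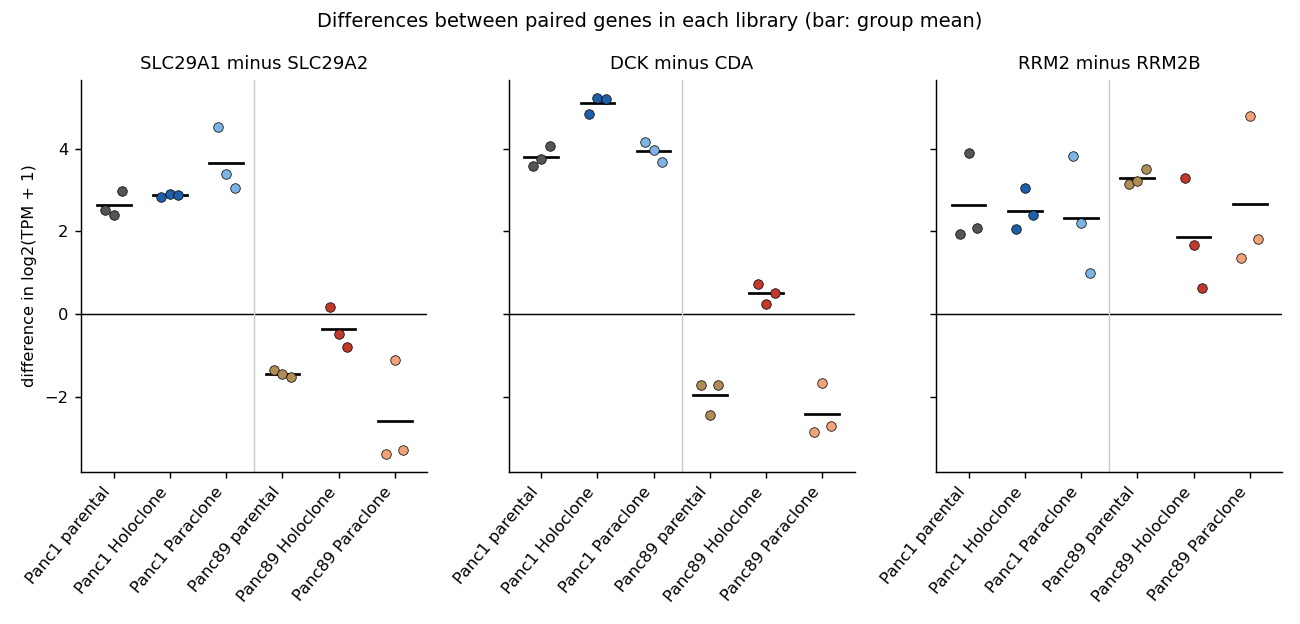
Each panel plots the difference between 2 genes in log2(TPM + 1) for every library, with 3 points and a bar at the mean per group and a black line at 0, where both genes are equal. SLC29A1 minus SLC29A2 and DCK minus CDA separate the lines (-4.53 and -5.57), whereas RRM2 minus RRM2B lies between 0.991 and 3.89 in Panc1 libraries and between 0.621 and 4.78 in Panc89 libraries.

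RRM1 and RRM2 encode the large and the small subunit of ribonucleotide reductase, and RRM2 is known as a gene of S phase. RRM1 lies at chr11:4094707-4138932 (plus strand) and RRM2 at chr2:10120698-10211725 (plus strand). The sequences before their starts are shown because both transcripts moved together in these libraries. They are taken from RefSeq, build GRCh38.p14, chr11:4094435-4094684 and chr2:10122619-10122738, plus strand, end at the base before the annotated start, and have the CCAAT boxes in capitals. The RRM2 stretch lies within a coding exon of another transcript in GENCODE 44.
RRM1: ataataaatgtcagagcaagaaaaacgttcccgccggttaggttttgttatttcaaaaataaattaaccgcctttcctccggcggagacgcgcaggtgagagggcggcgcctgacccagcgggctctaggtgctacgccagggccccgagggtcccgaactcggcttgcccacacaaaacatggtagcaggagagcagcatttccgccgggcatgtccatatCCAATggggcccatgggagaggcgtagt
RRM2: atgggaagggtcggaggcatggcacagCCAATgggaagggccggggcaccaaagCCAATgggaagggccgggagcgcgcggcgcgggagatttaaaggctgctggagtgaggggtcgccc
CCAAT was searched on both strands in the 250 bases before the start, for which RefSeq entries matched 8 of the 10 genes. RRM2 held 3 boxes, at 123 to 119, 93 to 89 and 66 to 62 bases before the start of the first of its entries and the last 2 of them in the stretch shown, and RRM1 held 1, at 28 to 24 bases. The window of the other RRM2 entry held 1 box, at 249 to 245 bases before its start. CCAAT occurred in 32.0% of all 35116 such windows, and 3 or more boxes in 2.93%. None of the windows of DCK, CDA, DCTD, CMPK1, SLC29A1 and SLC28A1 held it. The E2F letters TTTCCCGC, TTTCGCGC, TTTGCCGC and TTTGGCGC, present in 2.79% of all windows, were found in none of these genes' windows. A match of letters is a description of the window and not a site.

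RRM1 was at 78.1, 117 and 80.1 TPM in parental, 86.3, 129 and 96.0 TPM in Holoclone and 133, 66.9 and 56.5 TPM in Paraclone cells of Panc1. Panc89 had 50.5, 47.2 and 54.7 TPM in parental, 119, 51.1 and 28.8 TPM in Holoclone and 15.3, 69.9 and 19.1 TPM in Paraclone cells. Parental cells of the lines did not overlap, whereas Holoclone and Paraclone cells of the lines did, through 1 high Panc89 library in each. The log2 fold change of Panc89 against Panc1 was -0.82 (SE 0.514, adjusted p = 0.175, limma) for parental, -0.85 (adjusted p = 0.158) for Holoclone and -1.50 (adjusted p = 0.0195) for Paraclone cells. The Paraclone call was lost, with adjusted p = 0.0961, 0.1 and 0.0804, without Panc1 Paraclone replicate 1, Panc89 Paraclone replicate 1 or Panc89 Paraclone replicate 3, and the Holoclone fold change became -1.39 (adjusted p = 0.0248) without Panc89 Holoclone replicate 1.

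RRM2 was at 139, 381 and 148 TPM in parental, 158, 269.7 and 199 TPM in Holoclone and 319, 122 and 58.4 TPM in Paraclone cells of Panc1. Panc89 had 84.9, 77.9 and 99.9 TPM in parental, 127, 47.0 and 24.6 TPM in Holoclone and 13.7, 173 and 22.3 TPM in Paraclone cells. Parental and Holoclone cells of the lines did not overlap. The log2 fold change of Panc89 against Panc1 was -1.18 (SE 0.801, adjusted p = 0.207, limma) for parental, -1.93 (adjusted p = 0.0451) for Holoclone and -1.76 (adjusted p = 0.069) for Paraclone cells. Leaving out any of the 3 Panc1 Holoclone libraries or Panc89 Holoclone replicate 2 or 3 ended the Holoclone call (-2.11 to -1.39, adjusted p 0.0599 to 0.181), and leaving out Panc1 Paraclone replicate 3 or Panc89 Paraclone replicate 2 gave a Paraclone call (-2.34, adjusted p = 0.0309, and -2.84, adjusted p = 0.00187).

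Within groups, RRM1 and RRM2 moved with other genes of DNA replication. A level of 40 S phase genes, which left out RRM1 and RRM2, was taken as the median deviation of these genes from their means over all libraries, in log2 units. In 3 libraries it lay over 1 unit above the next library of the group, at 0.616 in Panc1 Paraclone replicate 1 (next -0.408), 0.942 in Panc89 Holoclone replicate 1 (next -0.140) and 0.525 in Panc89 Paraclone replicate 2 (next -0.922). These are the libraries in which RRM1, RRM2 and SLC29A1 were highest in their group and DCK as well. Parental Panc1 replicate 2, with the highest RRM2 value of all, had a level of 0.756 against -0.125 and -0.143 in the other 2.

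Deviations from the group mean followed that level with Pearson's r = 0.982 for RRM1, 0.979 for RRM2, 0.922 for SLC29A1 and 0.894 for DCK over the 18 libraries in 6 groups. The median r of all genes tested was 0.187. CMPK1 had r = 0.678 and CDA 0.405, whereas SLC29A2 had -0.120, DCTD -0.528 and RRM2B -0.601. All points share the libraries and their scaling, and the values are given as a description. The part of the S phase level in the differences between groups was not tested, and calls that changed between Holoclone and Paraclone cells without the 3 libraries are given with those comparisons. Between the Paraclone cells of the lines, DCK was called as higher in Panc89 without the 3 libraries (0.33, adjusted p = 0.0265, limma) and with the S phase level as a covariate (0.72, adjusted p = 0.000953), and ranged from 0.14 without Panc89 Paraclone replicate 2 to 0.66 without Panc1 Paraclone replicate 1. RRM2 was called as lower there without the 3 libraries (-2.20, adjusted p = 0.0016) and with the covariate (-1.05, adjusted p = 0.000101). With all libraries and no covariate, neither gene was called there. DCK and RRM2 follow the S phase level within groups, so these calls depend on the choice of setting.

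**Figure D3:**
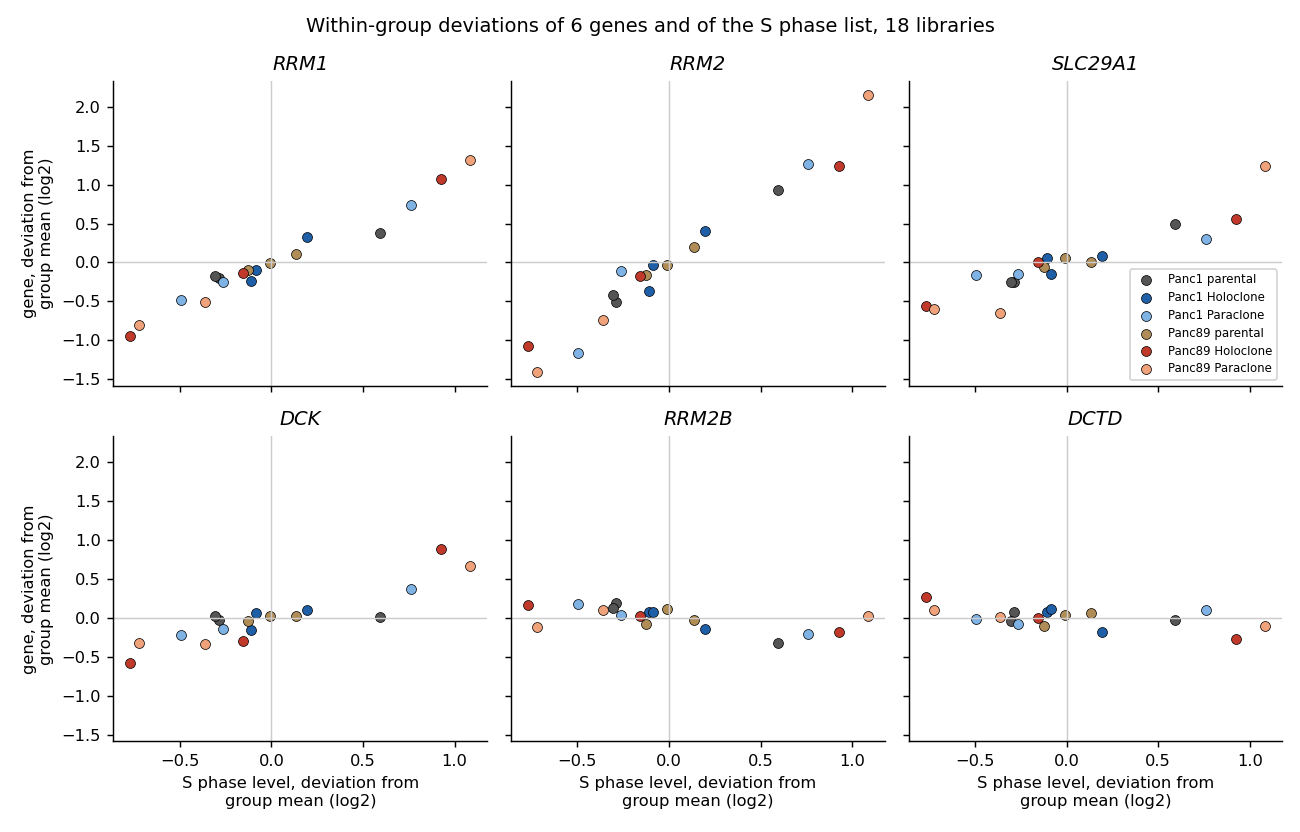
Each panel plots, for 18 libraries colored by group, the deviation of 1 gene from its group mean (vertical axis, log2) against that of the S phase level (horizontal axis, log2). RRM1, RRM2, SLC29A1 and DCK rise along the axis (r from 0.894 to 0.982), and RRM2B and DCTD do not (r = -0.601 and -0.528).

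RRM2B (p53R2, chr8:102204502-102238961, minus strand), the small subunit that is inducible by p53 and serves resting cells, was lower in Panc89 in all 3 kinds of culture. It was at 35.8, 24.8 and 34.2 TPM in parental, 37.4, 32.0 and 37.4 TPM in Holoclone and 21.9, 25.9 and 28.9 TPM in Paraclone cells of Panc1. Panc89 had 8.75, 7.51 and 7.84 TPM in parental, 12.1, 14.1 and 15.7 TPM in Holoclone and 4.74, 5.32 and 5.71 TPM in Paraclone cells. The lines did not overlap, and within Panc89 the 3 groups did not overlap either. The log2 fold change of Panc89 against Panc1 was -1.84 (SE 0.149, adjusted p = 2.6e-08, limma) for parental, -1.29 (adjusted p = 1.46e-06) for Holoclone and -2.08 (adjusted p = 6.36e-09) for Paraclone cells. RRM2 minus RRM2B gave no call between the lines (0.11, p = 0.837, exact two-sided permutation test), with group means from 1.86 to 3.29 and SDs from 0.198 to 1.86.

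In parental cells, 5 of the 9 genes tested were called between Panc89 and Panc1, CDA and SLC29A2 as higher and CMPK1, SLC29A1 and RRM2B as lower, beside 66% of all genes tested. In Holoclone cells 6 were called, the same 5 and RRM2 as lower, beside 65.8% of all genes. In Paraclone cells 6 were called, the same 5 and RRM1 as lower, beside 60.7% of all genes. These shares are near those of all genes, so that the counts say nothing particular about the nucleoside genes. The median log2 fold change of the 9 genes was -0.75, -0.85 and -0.85 in the 3 comparisons, beside -0.18, -0.11 and -0.0029 for all genes tested. A scaling by the upper quartile of each library moves the fold changes of well expressed genes in these comparisons by 0.16, 0.12 and -0.024. Scaling by the median of ratios moves them by 0.25, 0.19 and 0.051.

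**Figure D4:**
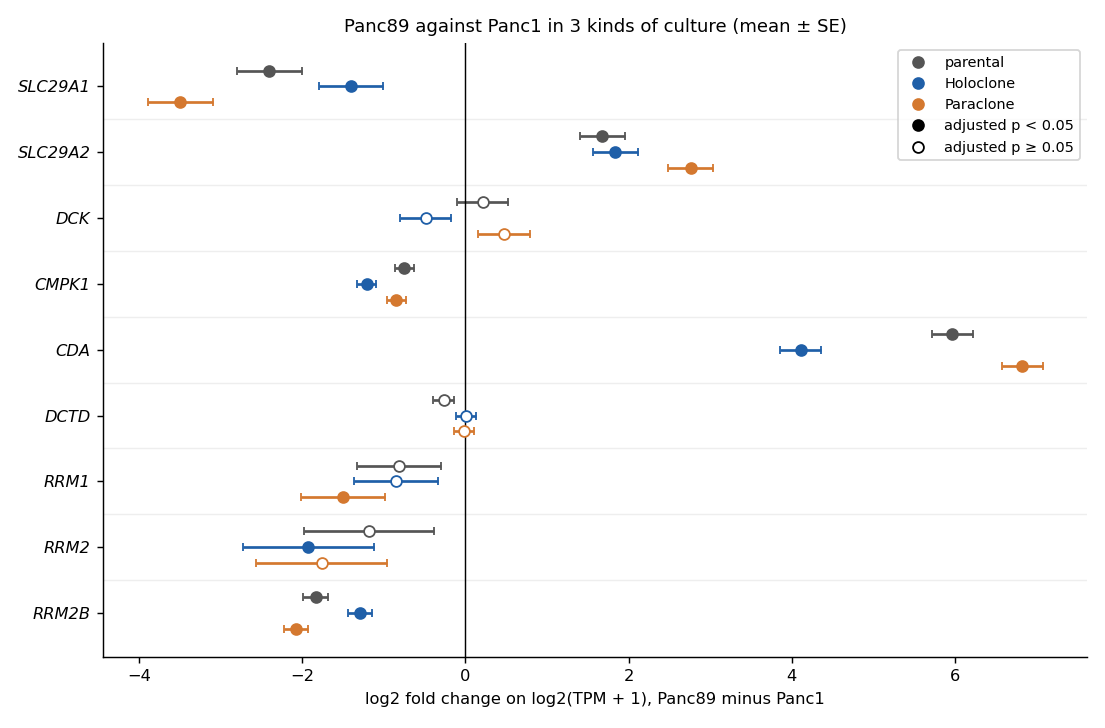
Points are log2 fold changes of Panc89 minus Panc1 on log2(TPM + 1) with bars of 1 SE, for parental, Holoclone and Paraclone cells, filled where the adjusted p was under 0.05. CDA (4.11 to 6.83) and SLC29A2 (1.68 to 2.76) lie right of 0 and SLC29A1, CMPK1 and RRM2B left of 0 in all 3, while DCK and DCTD have open points throughout.

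Between Holoclone and Paraclone cells of Panc89, 5 of the 9 genes were called, 3 as higher and 2 as lower in Holoclone cells, beside 35.7% of all genes tested. CDA was lower in Holoclone cells by -2.84 (SE 0.251, adjusted p = 4.47e-07, limma) and CMPK1 by -0.53 (SE 0.117, adjusted p = 0.00229). RRM2B was higher by 1.25 (SE 0.149, adjusted p = 9.93e-06) and SLC29A1 by 1.76 (SE 0.397, adjusted p = 0.00267). DCTD was higher by 0.37 (SE 0.126, adjusted p = 0.0307). For CDA, CMPK1 and RRM2B the libraries of both groups did not overlap, whereas Paraclone replicate 2 reached into the Holoclone range of SLC29A1 and Holoclone replicate 1 and Paraclone replicate 1 met at 80.7 TPM in DCTD.

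The SLC29A1 call was lost with these 2 groups fitted alone (adjusted p = 0.0908), and without the 3 libraries of high S phase level it was 2.10 (adjusted p = 1.51e-05). The DCTD call was lost without Panc89 Holoclone replicate 2 or 3 or Panc89 Paraclone replicate 2 or 3 (adjusted p from 0.0703 to 0.16), and under both other scalings (0.265 and 0.235, adjusted p = 0.16 and 0.25). Without the 3 libraries of high S phase level, CDA was at -3.21 and RRM2B at 1.35, and RRM1 was called as higher (1.12, adjusted p = 0.00439). RRM1 and SLC29A1 follow that level within groups, so this RRM1 call and the SLC29A1 value of 2.10 depend on the choice of libraries. RRM1, at 1.00 (SE 0.514, adjusted p = 0.146) with all libraries, was also called without Panc89 Holoclone replicate 3 (1.47, adjusted p = 0.0456) or Panc89 Paraclone replicate 2 (1.66, adjusted p = 0.00825). DCK had a log2 fold change of 0.076 (adjusted p = 0.89) and SLC29A2 of -0.47 (adjusted p = 0.207).

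Between Holoclone and Paraclone cells of Panc1, 3 of the 9 genes were called, all as higher in Holoclone cells, beside 37.3% of all genes tested. DCK was higher by 1.04 (SE 0.313, adjusted p = 0.0161, limma), with all 3 Holoclone libraries above all 3 Paraclone libraries. RRM2B was higher by 0.47 (SE 0.149, adjusted p = 0.0213) and DCTD by 0.35 (SE 0.126, adjusted p = 0.0399), both again without overlap. Over all genes tested the median fold change here was 0.19 on the log2 scale, and scaling by the upper quartile or by the median of ratios moved fold changes by -0.25 or -0.28. Both left DCK called and ended the calls of RRM2B (0.23 and 0.20, adjusted p = 0.357 and 0.418) and DCTD (0.10 and 0.077), and CMPK1 was then called as lower (-0.42 and -0.44), where the values as deposited gave -0.17 (adjusted p = 0.283).

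The DCK call was lost, with adjusted p = 0.0577 and 0.0617, without Panc1 Paraclone replicate 2 or 3, and its fold change was 1.22 (adjusted p = 2.67e-06) without the 3 libraries of high S phase level. DCK follows that level within groups, so the value of 1.22 and its adjusted p depend on the choice of libraries. RRM1, at 0.36 (SE 0.514, adjusted p = 0.645) with all libraries, and RRM2, at 0.63 (SE 0.801, adjusted p = 0.593), were called as higher without those 3 libraries (0.72, adjusted p = 0.0278, and 1.27, adjusted p = 0.0341). Of these libraries only Panc1 Paraclone replicate 1 belongs to the groups compared. It was left out for a level that RRM1 and RRM2 follow, so both calls depend on that choice. With the S phase level as a covariate the values were -0.31 for RRM1 and -0.41 for RRM2, and neither was called. Without the 3 libraries, RRM2B lost its call (0.36, adjusted p = 0.0686). The RRM2B call was also lost without Panc1 Holoclone replicate 1 or 3 or Panc1 Paraclone replicate 1 (0.365 to 0.432, adjusted p 0.0695 to 0.0909). DCTD lost its call without Panc1 Holoclone replicate 1 or 3 or Panc1 Paraclone replicate 2 or 3 (0.291 to 0.339, adjusted p 0.0935 to 0.145). CDA, near 0 in both groups, had -0.12 (adjusted p = 0.759), and SLC29A1 had -0.33 (adjusted p = 0.562).

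**Figure D5:**
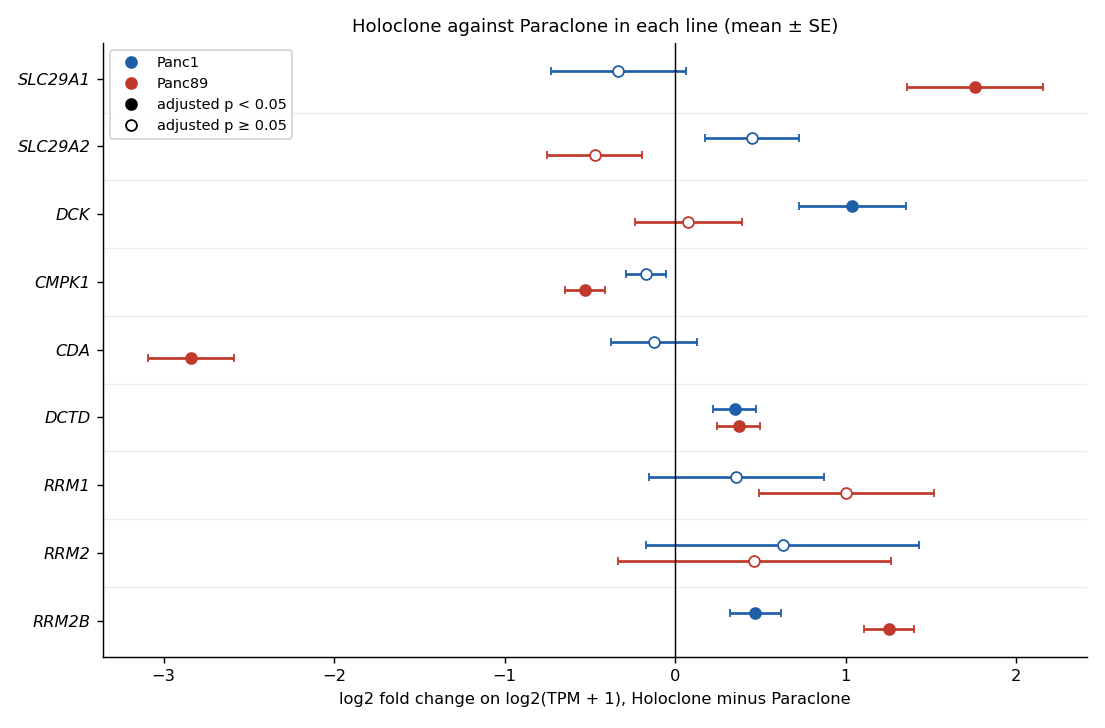
Points are log2 fold changes of Holoclone minus Paraclone cells on log2(TPM + 1) with bars of 1 SE, for Panc1 and Panc89, filled where the adjusted p was under 0.05. CDA lies at -2.84 in Panc89 and at -0.12 in Panc1, SLC29A1 at 1.76 and -0.33, and DCK at 0.076 and 1.04.

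The change from Paraclone to Holoclone cells was compared between the lines by the interaction term, which called 3 of the 9 genes, beside 35.1% of all genes tested. CDA differed by -2.72 (SE 0.355, adjusted p = 2.8e-05, limma), with CDA at or under 0.239 TPM in both Panc1 groups. At such levels log2(TPM + 1) leaves little room for a change in Panc1, so this value mostly repeats the change in Panc89. SLC29A1 differed by 2.09 (SE 0.561, adjusted p = 0.00882) and RRM2B by 0.78 (SE 0.211, adjusted p = 0.00893). DCK, at -0.96 (SE 0.443, adjusted p = 0.106), was not called with all libraries and was called without Panc89 Holoclone replicate 1 (-1.40, adjusted p = 0.00425). CMPK1, at -0.36 (adjusted p = 0.105), was called without the same library (-0.45, adjusted p = 0.0448), and SLC29A2, at -0.92 (adjusted p = 0.0808), without Panc1 Paraclone replicate 3 (-1.15, adjusted p = 0.0359). DCTD had a difference of 0.023 (SE 0.178) and RRM2 of -0.17 (SE 1.13).

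Against the parental cells, which are the common reference of the clones of a line, between 0 and 4 of the 9 genes were called. Panc89 Holoclone cells had 4 calls, beside 24.7% of all genes: CDA at -2.36 (adjusted p = 5.46e-06, limma) and CMPK1 at -0.39 (adjusted p = 0.0223) as lower, and RRM2B at 0.72 (adjusted p = 0.00209) and DCTD at 0.49 (adjusted p = 0.00979) as higher. The CMPK1 call was lost without Panc89 parental replicate 1 or 3 or Panc89 Holoclone replicate 2 or 3 (-0.398 to -0.315, adjusted p 0.0573 to 0.109), and the DCTD call without Panc89 Holoclone replicate 3 (0.355, adjusted p = 0.0542) and under both other scalings (adjusted p = 0.0606 and 0.076). Panc89 Paraclone cells had 1 call, beside 19.4% of all genes, RRM2B as lower (-0.53, adjusted p = 0.0197), which was lost without Panc89 parental replicate 1 or 3 or Panc89 Paraclone replicate 1 (adjusted p 0.0528 to 0.0858). Without Panc89 Paraclone replicate 2, 4 genes were called as lower there, RRM2B, SLC29A1 (-1.52, adjusted p = 0.000902), RRM1 (-1.51, adjusted p = 0.0217) and RRM2 (-2.25, adjusted p = 0.0225).

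In Panc1, Paraclone cells had 1 call against parental cells, beside 28.6% of all genes, SLC29A2 as lower (-0.83, SE 0.277, adjusted p = 0.036, limma). It was lost without Panc1 parental replicate 1 or 2 or Panc1 Paraclone replicate 1 or 2 (-0.889 to -0.463, adjusted p 0.0629 to 0.175), and RRM2B was called as lower (-0.45, adjusted p = 0.0311) without Panc1 parental replicate 2. Both other scalings also ended the SLC29A2 call (adjusted p = 0.123 and 0.145) and gave a call of CMPK1 as higher (0.43 and 0.47), which as deposited was at 0.24 (adjusted p = 0.148). Panc1 Holoclone cells had 0 calls in limma, beside 10.9% of all genes. At an unadjusted p under 0.05, 1 of the 9 genes passed in that comparison, DCK, at 0.80 (SE 0.313, adjusted p = 0.126). Fitted with these 2 groups alone, DCK was called (adjusted p = 0.0118), and all 3 of its Holoclone libraries were above all 3 parental libraries.

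The other genes of nucleoside uptake and nucleotide metabolism gave further differences between the parental lines, where 66% of all genes were called. Of 4 further nucleoside transporters, 3 were tested, of which 1 was higher and 1 lower in Panc89. SLC28A3 (CNT3), which also carries gemcitabine, was at most 0.0128 TPM in parental Panc1 and at 3.01 to 12.0 TPM in parental Panc89 cells, and was at 0.0290 to 0.180 TPM in Panc89 Holoclone cells. SLC29A4 was lower in parental Panc89 cells by -2.47 (adjusted p = 2.77e-08, limma). Of 16 nucleoside and nucleotide kinases 2 were higher and 5 lower, and CMPK2, a mitochondrial kinase, had the highest fold change of them (4.91, adjusted p = 7.44e-07). Of 16 nucleotidases and catabolic enzymes 11 were tested, 4 higher and 6 lower, with a median of -0.84 beside -0.18 for all genes.

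Among the catabolic enzymes, SAMHD1, a triphosphohydrolase of deoxynucleotides, lay between 6.02 and 8.94 TPM in parental Panc1 and between 44.7 and 97.0 TPM in parental Panc89 cells (3.15, adjusted p = 1.96e-05, limma). The thymidine phosphorylase TYMP was higher (3.14, adjusted p = 1.18e-05) and the uridine phosphorylase UPP1 lower (-3.15, adjusted p = 0.000121). NT5E (CD73), an ectonucleotidase, was lower by -1.71 (adjusted p = 4.4e-07). Of 12 genes of pyrimidine and deoxynucleotide synthesis 1 was higher, SHMT2 (2.72), and 2 lower, with CTPS1, the CTP synthase, at -1.89.

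Between Holoclone and Paraclone cells of Panc89, 22.4% of all genes were called as higher and 13.3% as lower. Of the 3 transporters 1 was higher (SLC29A4, 1.04) and 1 lower (SLC28A3, -1.26, adjusted p = 0.0108, limma). Of the 16 kinases 4 were higher and 1 lower, with a median of 0.21 beside 0.092 for all genes. Of the 11 catabolic enzymes 2 were higher and 3 lower, with NT5E at -2.22 (adjusted p = 1.48e-07) and TYMP at -2.0 (adjusted p = 0.00217) the lowest. Of the 12 synthesis genes 3 were higher and 0 lower, among them DHODH (0.97), the enzyme of pyrimidine synthesis in mitochondria. Of 13 p53 target genes, read because RRM2B is one, 4 were higher and 2 lower, with GDF15 at 4.61 and MDM2 at 1.20 as the highest and TIGAR at -0.78 and TP53I3 at -0.51 as the lowest.

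In Panc1, 27.4% of all genes were called as higher and 9.97% as lower in Holoclone than in Paraclone cells. Of the 3 transporters 1 was higher, SLC29A3 (0.88, adjusted p = 0.00351, limma), and 0 lower. Of the 16 kinases 2 were higher and 1 lower, and of the 12 synthesis genes 3 were higher and 0 lower. Of the 11 catabolic enzymes 3 were higher and 2 lower. NT5C2, a cytosolic nucleotidase, was at 226 to 263 TPM in Holoclone and 58.3 to 76.5 TPM in Paraclone cells (1.93, adjusted p = 6.97e-07). DPYD, which degrades uracil and thymine, was at 0.605 to 0.784 TPM in Holoclone and 11.1 to 16.0 TPM in Paraclone cells (-2.99, adjusted p = 1.00e-06), and NT5E was lower (-0.79, adjusted p = 0.00247). Of the p53 target genes 2 were higher and 1 lower. The list counts hold for the values as deposited and were not recomputed under other scalings or without single libraries.

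Of the 40 S phase genes, 4 were higher and 1 lower between the parental lines, 2 higher and 1 lower between Holoclone and Paraclone cells of Panc1, and 3 higher and 0 lower between those of Panc89, beside 66%, 37.3% and 35.7% of all genes called in either direction. Their median log2 fold change was 0.0025, 0.64 and 0.61 in these comparisons, beside -0.18, 0.19 and 0.092 for all genes. Of 54 G2/M phase genes 2 were higher and 6 lower, 4 higher and 0 lower, and 3 higher and 0 lower in the same order, with medians of -0.53, 0.54 and 0.77.

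Genes whose level followed these transcripts most closely over the 18 libraries are given as a description, since the libraries share line, clone and passage. RRM1 was closest to NASP (Pearson's r = 0.984), which is on the S phase list, PHF19 (0.979) and NRM (0.978), and RRM2 to ESPL1 (0.985), STIL (0.983) and PCLAF (0.982). Among the closest to DCK were GINS3 (0.916) and ATAD5 (0.896). SLC29A1 was closest to PRPS1 (0.978), YIF1B (0.972) and TAF9B (0.971). For genes that separate the lines the closest genes do so too: CDA was closest to ITGB6 (0.994), BAIAP2L2 (0.993) and GAGE12F (0.992), a member of a family of near-identical copies whose own value is uncertain, RRM2B to ZNF585A (0.991), BRSK1 (0.988) and ROBO3 (0.987), and SLC29A2 to ARRDC1 (0.974), MTIF3 (0.972) and MUC20-OT1 (0.968). Among the closest to CMPK1 were SLC25A20 (0.972) and MRPL33 (0.969). DCTD had the least close set, CAMSAP2 (0.906), RELA (0.890) and ZNF768 (0.880).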

How the data were processed

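RNA of 3 passages of each of the 6 cell variants was sequenced by the authors with a stranded mRNA kit and paired-end reads, quantified with kallisto 0.46.1 against Ensembl GRCh38 transcripts and summed per gene with tximport, from scaled TPM. What was deposited is log2(TPM + 1), with a row for each gene symbol. As TPM, a library sums to 985339 to 988066, so the table holds no depth. The authors' own tests used DESeq2. All 18 columns were matched to samples by their labels.

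Fold changes were fitted with limma 3.58.1 in R 4.3.3 (eBayes with trend, 6 group means, 12 residual degrees of freedom), and 3 gene pairs were compared by an exact permutation test within the kinds of culture. Figures and descriptions used pandas 2.3.3. The procedure was tested on simulated data for Panc89 Holoclone against Paraclone cells. It called 68 of 104 changes of 1 log2 unit and 92 of 96 changes of 2 log2 units. A missing call is therefore no evidence of equal levels. Alternatives were a pseudocount of 0.1, no filter, upper quartile and median-of-ratios scaling, eBayes without trend, the compared groups alone, a replicate block and leaving out each library. After seeing the data, leaving out the 3 libraries of high S phase level and that level as a covariate were added. Genes named are the 10, from each further list at most the 2 highest and 2 lowest called fold changes in 3 comparisons, markers, and for each of the 9 tested genes the 3 most correlated, of which 2 are not reported here. The genes and lists were chosen with earlier results of these data known. The S phase and G2/M lists are those of Seurat. Gene positions come from GENCODE 44.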

Additional observations from a re-analysis of the deposited data

Results flagged for a closer look

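The interaction term of limma called CDA, SLC29A1 and RRM2B for the change from Paraclone to Holoclone cells on log2(TPM + 1). The difference, Panc89 minus Panc1, was -2.72 for CDA, 2.09 for SLC29A1 and 0.78 for RRM2B on the log2 scale. It held under all 21 alternatives run for each, with ranges of -3.15 to -2.21 for CDA, 1.77 to 2.71 for SLC29A1 and 0.70 to 0.99 for RRM2B and adjusted p from 1.73e-06 to 0.0142, 5.23e-06 to 0.0264 and 0.0026 to 0.0267. In Panc89, CDA was higher in all 3 Paraclone than in all 3 Holoclone libraries and RRM2B the other way, while CDA was at or under 0.239 TPM in both Panc1 groups. At such levels log2(TPM + 1) keeps the Panc1 change of CDA small (-0.12). Its interaction value therefore mostly repeats the change in Panc89 (-2.84), and whether CDA changes by another ratio in Panc1 cannot be told. SLC29A1 followed the S phase level within groups (r = 0.922), and its difference was 2.28 (adjusted p = 0.0001) without the 3 libraries of high level and 2.12 (adjusted p = 5.23e-06) with that level as a covariate.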

How the results depend on the processing

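Of 1386 fold changes of the 9 genes recomputed under alternatives, 1220 kept their direction and call, 59 lost and 57 gained a call, and 50 changed sign, none of them of a value called as reported. The cause of these changes was not tested. RRM1, RRM2, SLC29A1 and DCK follow the S phase level within groups, so alternatives that use it are not independent of them. The TPM hold no depth, so no floor can be given for CDA in Panc1.

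With the compared groups alone, 9 genes instead of 5 were called between parental lines, 3 instead of 5 between Holoclone and Paraclone cells of Panc89, 1 instead of 0 for Panc1 Holoclone against parental cells, 0 instead of 1 for Panc1 and for Panc89 Paraclone against parental cells, and 2 instead of 4 for Panc89 Holoclone against parental cells. A pseudocount of 0.1 gave 1 for Panc1 Holoclone and 2 for Panc1 Paraclone against parental cells, CDA being added in both, and no filter gave 0 for the latter. The share of all genes called under each alternative is not given beside these counts or those of the following paragraphs. Changes in the counts can therefore not be read as particular to the nucleoside genes.

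Replicate numbers did not pair the libraries: over 18 pairs of equal numbers within a line the correlation of deviations was -0.318 to 0.190, over 0.1 in 3. With a replicate block within each line, 0 genes instead of 1 were called for Panc1 Paraclone against parental cells, and the RRM2 call between Holoclone cells of the lines was lost (adjusted p = 0.0583, limma). No filter and median-of-ratios scaling also ended that call (adjusted p = 0.088 and 0.0569), and the RRM1 call between Paraclone cells was lost with those groups alone (adjusted p = 0.0867).

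With the S phase level as a covariate, 8 genes were called between parental lines, 5 between Holoclone and Paraclone cells of Panc1, 1 for Panc1 Holoclone and 2 for Panc1 Paraclone against parental cells, and 6 for the interaction. Values then changed sign to -0.048 for DCTD between Holoclone cells of the lines, -0.31 for RRM1 and -0.41 for RRM2 between Holoclone and Paraclone cells of Panc1, -0.27 for DCK and -0.52 for RRM2 (then called as lower, adjusted p = 0.0357) between those of Panc89, -0.15 for RRM1 and -0.48 for RRM2 in Panc1 Holoclone and 0.16 for RRM1 in Panc1 Paraclone against parental cells.

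Without the 3 libraries of high S phase level, 2 genes were called for Panc1 Paraclone, 7 for Panc89 Holoclone and 5 for Panc89 Paraclone against parental cells, and 5 for the interaction. Signs changed to 0.091 for DCTD between Paraclone cells of the lines, -0.037 for DCK between Holoclone and Paraclone cells of Panc89, -0.34 for DCK and -0.39 for RRM1 in Panc89 Holoclone and -0.31 for DCK in Panc89 Paraclone against parental cells, and -0.23 for RRM2 minus RRM2B between the lines. DCK was then called as lower against parental cells in Panc89 Holoclone (adjusted p = 0.0257, limma) and Panc89 Paraclone cells (adjusted p = 0.042).

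Upper quartile and median-of-ratios scaling changed the sign of DCK to -0.029 and -0.059 between Holoclone and Paraclone cells of Panc89 and to -0.0064 and -0.0036 in Panc89 Holoclone against parental cells. They changed RRM2 to -0.022 and -0.0073 in Panc1 Holoclone, and DCTD to 0.054 and 0.095 and RRM1 to 0.0098 and 0.051 in Panc1 Paraclone against parental cells. Median-of-ratios scaling gave 0.034 for DCTD between Paraclone cells of the lines.

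With each library left out in turn, between 1 and 3 genes were called between Holoclone and Paraclone cells of Panc1, 0 to 1 for Panc1 Paraclone, 2 to 4 for Panc89 Holoclone and 0 to 4 for Panc89 Paraclone against parental cells, and 3 to 5 for the interaction. Of all genes tested, 4763 to 5808, 3140 to 4323, 2972 to 4319, 2116 to 4249 and 4806 to 6072 were called in these comparisons, in the same order. Between the lines, DCTD ranged from -0.13 to 0.14 in Holoclone and -0.066 to 0.038 in Paraclone cells, and RRM2 minus RRM2B from -0.24 to 0.36. Between Holoclone and Paraclone cells of Panc89, DCK ranged from -0.37 to 0.41 and RRM2 from -0.24 to 1.54. In Panc1 Holoclone against parental cells SLC29A1 ranged from -0.26 to 0.11 and RRM2 from -0.22 to 0.50, and in Panc1 Paraclone RRM1 from -0.54 to 0.066. In Panc89 Holoclone against parental cells DCK ranged from -0.34 to 0.39 and RRM1 from -0.39 to 0.62, and in Panc89 Paraclone DCK from -0.31 to 0.19. In the interaction DCTD ranged from -0.11 to 0.16 and RRM2 from -0.87 to 0.91.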
